A study of Mus musculus with 12 samples.

Results

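The surfactant and alveolar type 2 genes studied here are Sftpa1, Sftpb, Sftpc, Sftpd, Abca3, Lamp3, Napsa, Nkx2-1, Lpcat1 and Etv5. Alveolar type 2 cells make pulmonary surfactant, the film of phospholipids and proteins that lowers surface tension at the air-liquid interface of the alveolus. They store it in lamellar bodies, secrete it, take part of it up again, and also serve as progenitors of the flat type 1 cells. The type 2 program rests on transcription factors such as Nkx2-1, on lipid enzymes and transporters that fill the lamellar body, on proteases that process the surfactant protein precursors, and on the surfactant proteins themselves. N6-methyladenosine (m6A) is a common internal mark of messenger RNA, often found near stop codons and in 3′ untranslated regions (3′ UTRs).

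The m6A of lung RNA was mapped by methylated RNA immunoprecipitation sequencing (MeRIP-seq) in female BALB/c mice aged 6 to 8 weeks. The OVA group was sensitized with ovalbumin and aluminum hydroxide on days 0 and 7 and breathed aerosolized 3% ovalbumin from day 14 to day 20. The PBS group received phosphate-buffered saline in place of both. Lungs were taken on day 21. In the paper's protocol this followed an airway test with inhaled methacholine, and lavage fluid of the airways was collected as well. Whether the sequenced mice went through both is not stated. Each group had 3 replicates, each with 1 library of fragments pulled down with an m6A antibody (IP) and 1 input library of the same fragments without it. The deposited result is 1 pooled peak list for each group. A peak is a stretch of exonic sequence where IP exceeded input, and its fold enrichment divides the IP signal by that of the input. With no values of single mice, no spread between replicates and no test between the lists can be given. The paper reports differentially methylated peaks between the groups, which are not used here. All comparisons of OVA with PBS below are descriptions. RNA came from whole lung, so fewer type 2 cells and less RNA per cell cannot be told apart, and the lists give no transcript levels.

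A peak was taken as a member peak when it was assigned to one of the 10 genes by the authors' annotation or had been called on the model of one of them. This gave 18 of 27292 peaks in the OVA list and 14 of 26102 in the PBS list. The same 9 genes had a peak in both lists, and Sftpc was the only one of the 10 with none. By the same rule 55.3% of all RefSeq protein-coding genes had a peak in OVA and 53.9% in PBS, whether or not the lung expresses them. Of the 18 OVA peaks, 16 had a false discovery rate (FDR) under 0.05, as did all 14 PBS peaks. Over all peaks the shares were 98.1% in OVA and 97.8% in PBS. The annotation and the caller did not always name the same gene. In the OVA list 12 member peaks carried the member's name in both, 4 were called on a member but assigned to a neighbouring gene, and 2 were assigned to a member but called on another gene. In the PBS list these numbers were 9, 4 and 1.

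The collectins Sftpa1 and Sftpd are the hydrophilic surfactant proteins, which bind carbohydrates on microbes and particles. Sftpa1 had 1 peak in each list, in exon 5 of 5 on the plus strand, at chr14:41134248-41134397 in OVA and chr14:41134278-41134397 in PBS. Its fold enrichment was 1.56 in OVA and 1.54 in PBS. Only 3% of all peaks were lower in OVA and 2.81% in PBS. The evidence for the peak was nevertheless strong, with a log10 p of -765 in OVA and -354 in PBS, stronger than 95.5% and 89.6% of the peaks of the respective list. Sftpa1 thus combined a very low ratio with a very low p.

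Sftpd had 1 peak in each list, in the 3′ UTR on the minus strand, at chr14:41172214-41172542 in OVA and chr14:41172214-41172482 in PBS. Both peaks began 2 bp from the 3′ end of the RefSeq gene. The fold enrichment was 5.24 in OVA and 5.12 in PBS, just under the median over all peaks of 5.59 in OVA and 5.44 in PBS. The log10 p was -265 in OVA and -82.6 in PBS. The ratio of OVA over PBS was near 1 for both collectins, with a log2 ratio of 0.02 for Sftpa1 and 0.03 for Sftpd.

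Sftpb and Sftpc encode the small hydrophobic proteins that insert into the surfactant film and promote the spreading of its lipids. Sftpb had a peak with identical edges in both lists, chr6:72314162-72314371 in the 3′ UTR, ending 2 bp before the RefSeq 3′ end of the gene. Its fold enrichment was 4 in OVA and 3.22 in PBS, and its log10 p was -636 and -572. The log2 ratio of 0.31 was the highest among the members, and 65.3% of all peak pairs had a lower one. Like Sftpa1, Sftpb ranked low by ratio, above 37.7% of the list in OVA and 29.7% in PBS, and high by p, above 94.1% and 93.8%.

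Sftpc, a transcript made almost only by type 2 cells in the lung, had no peak in either list. Its RefSeq gene spans chr14:70520941-70524081. The nearest peak in both lists lay 707 bp away and belonged to Bmp1, a secreted protease gene, at chr14:70520114-70520234, with a fold enrichment of 5.31 in OVA and 7.07 in PBS. The next, on Lgi3, lay 6724 bp away, with 5.11 in OVA and 2.67 in PBS. A gene without a called peak is not shown to lack m6A, since the lists hold only stretches that passed the caller and give no read depth for the rest.

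Abca3, the transporter that carries phospholipids into the lamellar body, had 1 peak in each list near its 3′ end. The peak lay at chr17:24409422-24410141 in OVA and chr17:24409422-24410081 in PBS. It was called on Abca3 but assigned to Rnps1, whose transcript start lay 4424 bp from the OVA peak and 4484 bp from the PBS peak. The fold enrichment was 6.9 in OVA and 6.07 in PBS, above the median of each list, and the log10 p was -1100 and -806. The log2 ratio was 0.18. At the same place both lists hold a second call on D330041H03Rik, a processed transcript annotated on the opposite strand, with a fold enrichment of 6.97 in OVA and 5.92 in PBS. This second call shared 600 exonic bases with the Abca3 peak in OVA and 570 in PBS. The libraries were made with a method that marks strand, but whether the caller used it is not given in the sources used here. From these lists the calls on Abca3 and on the antisense transcript therefore cannot be told apart.

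Lpcat1, an acyltransferase that remodels phosphatidylcholine toward the saturated form abundant in surfactant, had 1 peak of 2 exonic blocks in each list. It lay in the 3′ UTR at chr13:73513819-73514629 in OVA and chr13:73513849-73514629 in PBS. The fold enrichment was 4.77 in OVA and 5.3 in PBS, a log2 ratio of -0.15, and the log10 p was -750 and -774. The transcript that the annotation chose for Lpcat1 is a retained-intron form, as it was for Sftpb, Sftpd, Napsa and the Abca3 peak under its assigned gene. Retained-intron transcripts carried 5 of 18 member peaks in OVA and 5 of 14 in PBS, against 20.4% and 20.1% of all peaks.

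Lamp3, a membrane protein of the lamellar body and lysosome used as a marker of mature type 2 cells, had 4 peaks in each list on the minus strand. A run of 3 peaks covered its 3′ UTR, and all 3 were assigned to the olfactory receptor gene Olfr171, whose transcript start lay between 24031 and 25409 bp away. The first lay at chr16:19653438-19654037 in OVA, with a fold enrichment of 2.88, and at chr16:19653438-19653947 in PBS, with 3.2. The second lay at chr16:19654247-19654696 in OVA, with 3.37, and at chr16:19654217-19654696 in PBS, with 3.75. Both had a log2 ratio of -0.15. The one farthest from the 3′ end lay at chr16:19654996-19655325 in OVA and chr16:19655026-19655295 in PBS. Its fold enrichment was 4.02 in OVA and 7.09 in PBS, a log2 ratio of -0.82, and 6.63% of all pairs had a lower one. All 3 peaks of the Lamp3 3′ UTR were thus lower in OVA, none of them by 2-fold. The log10 p of that last peak was -112 in OVA and -72.7 in PBS, so the list with the lower ratio had the lower p.

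The peak at the Lamp3 start had identical edges in both lists. It had 2 blocks, of 21 and 160 bases, between chr16:19701362 and 19706375 in the 5′ UTR. Its fold enrichment was 2.25 in OVA and 1.92 in PBS, a log2 ratio of 0.23. By ratio, the strongest Lamp3 peak lay at the same place in both lists, and the start peak was the weakest in both.

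Napsa encodes napsin A, an aspartic protease that takes part in cutting the precursors of the hydrophobic surfactant proteins. It had 1 peak with identical edges in both lists, chr7:44572589-44581046, made of 2 blocks of 101 and 109 bases and annotated to the 5′ UTR. The fold enrichment was 1.93 in OVA and 1.85 in PBS, a log2 ratio of 0.06. The log10 p was -35.2 and -27.2, close to the middle of each list. Napsa had no peak toward its 3′ end, which lay 5800 bp beyond this peak in RefSeq.

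Nkx2-1, the homeodomain factor that drives surfactant protein genes and lung identity, had the strongest member peak in both lists, by ratio and by p, and peaks that were laid out differently in OVA and PBS. In PBS a single peak of 1915 exonic bases in 2 blocks ran from 56531958 to 56534779 on chromosome 12, with a fold enrichment of 11.4 and a log10 p of -2190. It was wider than 98.8% of the PBS peaks and ranked above 76.4% of its list by fold enrichment. In OVA the same stretch held 3 peaks. The first, chr12:56531958-56533483 in the 3′ UTR, had a fold enrichment of 9.18 and a log10 p of -1690. The next, chr12:56533543-56533633 in exon 2 of 2, had 1.22 with a log10 p of -4.95, and the last, chr12:56533722-56534719, had 1.48 with a log10 p of -12.4.

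The 3 OVA peaks covered 1708 of the 1915 exonic bases of the PBS peak, so 89.2% of the stretch was called in both lists. Of all PBS peaks, 1.52% overlapped 3 or more OVA peaks, and 1.64% of the OVA peaks overlapped 3 or more PBS peaks. These shares are over peaks of every width, and none was computed for peaks as wide as this one. When the first OVA peak, of 1526 exonic bases, was set against the whole PBS peak, the log2 ratio was -0.31. That ratio, too, compares part of the stretch with all of it. The other two OVA values are ratios of short stretches set against a ratio over the whole PBS peak, and their log2 ratios of -3.22 and -2.95 mix place with group.

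**Figure D1:**
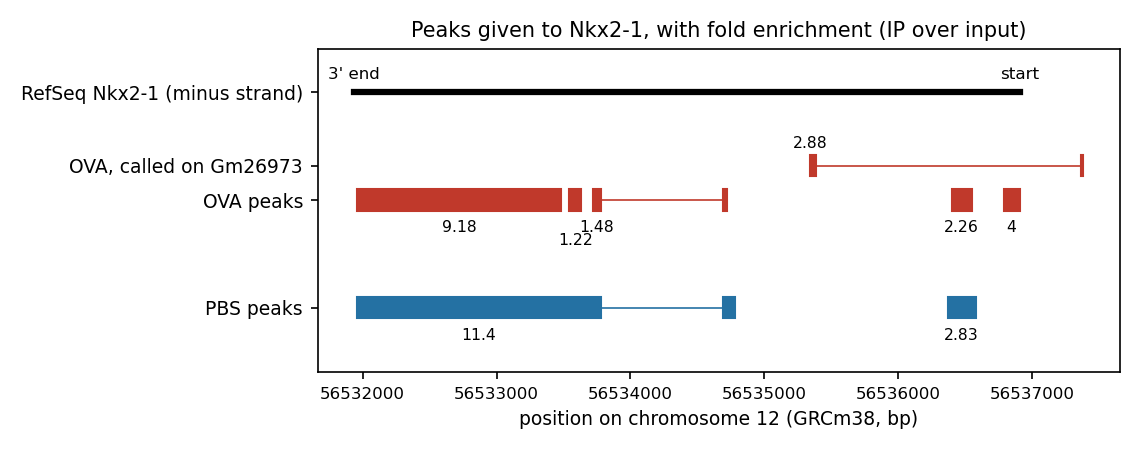
Peaks given to Nkx2-1 along chromosome 12 (position in bp, GRCm38), with exonic blocks as boxes, introns inside a peak as lines and the fold enrichment beside each peak. The PBS peak with a fold enrichment of 11.4 spans the stretch that holds 3 OVA peaks, with 9.18, 1.22 and 1.48.

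Toward its start, Nkx2-1 had a 5′ UTR peak in both lists, chr12:56536400-56536549 in OVA and chr12:56536370-56536579 in PBS. Its fold enrichment was 2.26 in OVA and 2.83 in PBS, a log2 ratio of -0.32. A further 5′ UTR peak at the very start of the gene, chr12:56536788-56536908, was called in OVA alone, with a fold enrichment of 4, a log10 p of -3.73 and an FDR of 0.00126. Only 13.3% of the OVA peaks had weaker evidence. The other peak without a PBS partner, chr12:56535343-56537382, was assigned to Nkx2-1 but called on Gm26973, in 2 blocks of 42 and 18 bases. Its fold enrichment was 2.88 and its FDR 0.0794. Both OVA peaks without a partner therefore ranked low in the list by p.

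Etv5, an ETS-family factor that maintains type 2 cell identity downstream of growth factor signalling, had a strong 3′ UTR peak in both lists. It lay at chr16:22382836-22383465 in OVA, with a fold enrichment of 8.65 and a log10 p of -591, and at chr16:22382836-22383525 in PBS, with 8.15 and -496. The log2 ratio was 0.09. A further peak was assigned to Etv5 but called on its neighbour Dgkg, a diacylglycerol kinase gene, 29431 bp from the start of the assigned Etv5 transcript in OVA and 29521 bp in PBS. This peak lies outside the RefSeq span of Etv5. It had a fold enrichment of 2.42 over 61 bases in OVA, with an FDR of 0.0977, and 4.44 over 301 bases in PBS, with an FDR of 5.89e-08. Its log2 ratio of -0.88 was the lowest of the member pairs, and 5.96% of all pairs had a lower one.

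Taken across the members, the layout was largely shared between the lists. Of the 18 OVA peaks, 16 overlapped a PBS peak by at least 1 exonic base, and all 14 PBS peaks overlapped an OVA peak. Over all peaks these shares were 80.6% for OVA and 85.5% for PBS, so sharing is common in both lists and not particular to the members. Inside the RefSeq spans of the 9 genes, OVA peaks covered 6240 exonic bases and PBS peaks 6104. In both lists 5747 bases were covered, 92.1% of the OVA bases and 94.2% of the PBS bases. The share of bases covered in both was not computed over all peaks, so these percentages have no background. For Sftpb and Napsa the covered bases were the same in both lists. Identical edges were found in 3 of 14 member pairs and in 13.4% of all pairs.

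Fold enrichment was compared between the lists over pairs of peaks that were each other's largest overlap. In the 14 member pairs it was higher in OVA in 7 and higher in PBS in 7. The log2 ratio ranged from -0.88 to 0.31, with a median of -0.07, and 12 of 14 pairs lay within 1.5-fold, beside 71.1% of all pairs. No member pair differed by 2-fold. Over all 20531 pairs, 7.78% were at least 2-fold higher in OVA and 4.92% at least 2-fold higher in PBS, so a count of 0 among 14 lies near this background. The median over all pairs was 0.13, with quartiles of -0.19 and 0.46, and 61.4% were higher in OVA. When that median was subtracted, 1 member pair passed 2-fold, the Dgkg peak assigned to Etv5, with -1.01. After the same subtraction 6.12% of all pairs were at least 2-fold higher in OVA and 6.09% in PBS. The p of the peak was lower in OVA in 10 of 14 member pairs and in 59.4% of all pairs.

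**Figure D2:**
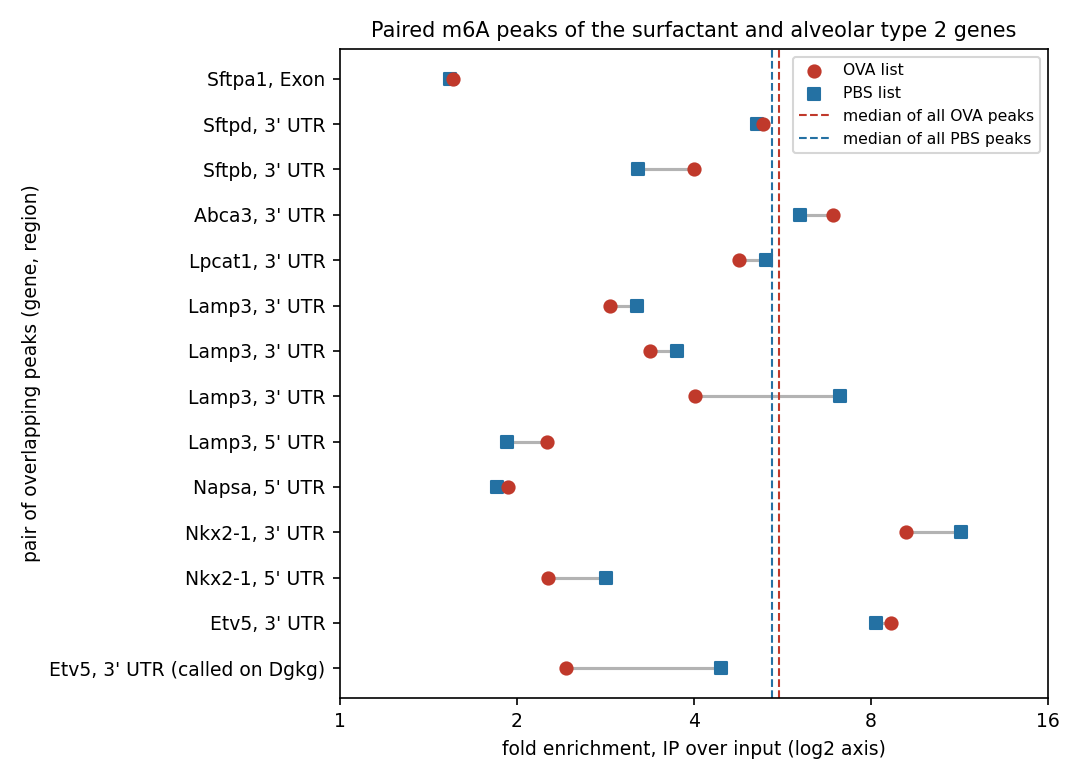
Fold enrichment (IP over input, log2 axis) of the 14 pairs of overlapping member peaks, with circles for the OVA list, squares for the PBS list and dashed lines at the medians over all peaks of 5.59 and 5.44. The pairs lie close together, apart from a Lamp3 3′ UTR peak (4.02 and 7.09) and the Dgkg peak assigned to Etv5 (2.42 and 4.44).

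Most member peaks ranked low by ratio, and their ranks by p were spread widely in OVA. Their median fold enrichment was 3.12 in OVA and 4.1 in PBS, beside 5.59 and 5.44 over all peaks. Below the median of their list were 15 of 18 OVA peaks and 10 of 14 PBS peaks. These counts weigh genes unequally, since Nkx2-1 gave 6 peaks in OVA and 2 in PBS, and Lamp3 gave 4 in each. By the strongest peak of each gene, Nkx2-1, Etv5 and Abca3 lay above the median in both lists, and Lamp3 in PBS alone. The strongest peaks of the other members with a peak lay below it. The highest 25% of the list by ratio held 0 member peaks in OVA and 1 in PBS, that of Nkx2-1. By p the order was different, since 7 of 18 OVA peaks and 5 of 14 PBS peaks were in the strongest 10% of their list. At the other end, 6 OVA peaks and 2 PBS peaks were weaker by p than the middle of their list, and 5 and 0 were in its weakest 25%. Those 5 OVA peaks are 4 given to Nkx2-1 and the Dgkg peak assigned to Etv5. Of the 7 OVA peaks in the strongest 10%, 4 lay below the median fold enrichment, as did 2 of the 5 PBS peaks. Among all peaks in the strongest 10% by p, 7.85% did so in OVA and 7.37% in PBS. The lists give no read numbers, so the part of transcript abundance in these ranks was not tested.

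**Figure D3:**
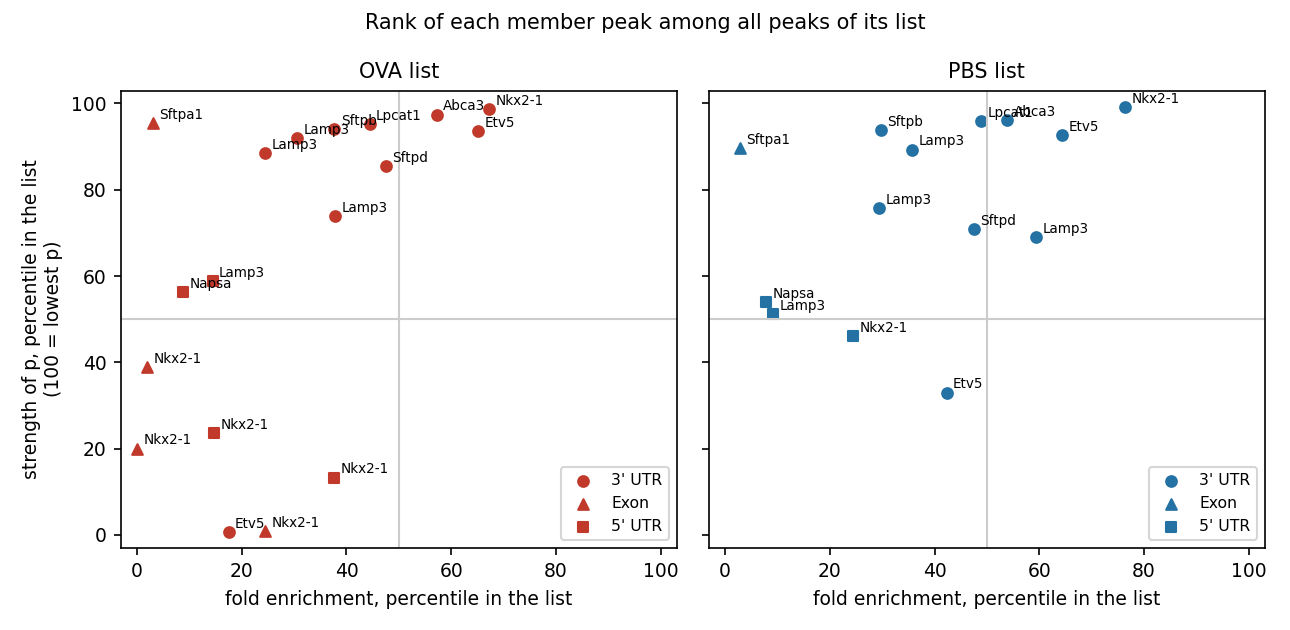
Rank of each member peak among all peaks of its list, as the percentile of its fold enrichment (horizontal) and of its p (vertical, with 100 for the lowest p), with the region of the peak as the symbol. Sftpa1 lies at the upper left in both lists, at 3 and 95.5 in OVA and at 2.81 and 89.6 in PBS, and the 3′ UTR peaks called on Nkx2-1, Etv5 and Abca3 lie at the upper right.

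The 3′ UTR held 10 of 18 member peaks in OVA, or 55.6% (95% exact binomial interval 30.8% to 78.5%), and 10 of 14 in PBS, or 71.4% (41.9% to 91.6%). The 10 peaks are the same pairs in both lists. The OVA share is lower only through the further peaks given to Nkx2-1, which had 6 in OVA and 2 in PBS. These intervals cover counting error only and treat peaks of the same gene as independent, which they are not. Of all peaks, 52.7% lay in the 3′ UTR in each list. The 5′ UTR held 4 member peaks in OVA and 3 in PBS, or 22.2% and 21.4%, beside 11.6% and 11.4% of all peaks. Among member peaks inside the genes' RefSeq spans, the median fold enrichment was 4.77 in the 3′ UTR and 2.25 in the 5′ UTR in OVA, and 5.3 and 1.92 in PBS. Over all peaks the medians of both regions were closer, 6.05 and 5.31 in OVA and 5.85 and 5.43 in PBS. The peaks of Sftpb, Sftpd, Abca3, Lamp3 and Nkx2-1 reached within 200 bp of the RefSeq 3′ end in both lists. Among member peaks both called on and assigned to the member, which leaves out Abca3 and the Lamp3 3′ UTR, this was 3 of 12 in OVA and 3 of 9 in PBS. Among all peaks called on and assigned to the same RefSeq protein-coding gene it was 11.6% and 11.2%. Of the 9 genes with a called peak, 7 had a single one in each list, while 48.9% of all called genes in OVA and 49.8% in PBS had a single one.

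For Nkx2-1 and Lamp3 the start peaks reach into the first transcribed bases for which RefSeq sequence was at hand (GRCm38, minus strand). Bases 21 to 50 of both transcripts are shown because they lie inside these peaks, for Nkx2-1 in OVA alone and for Lamp3 in both lists. Short cores of the m6A consensus were searched on the transcript strand alone and are in capitals. The first was GGAC, the next GAAC, followed by AGAC and lastly by AAAC. Nkx2-1, at chr12:56536859-56536888, held none of them here or in its first 50 bases, and Lamp3, at chr16:19706316-19706345, held 1.
Nkx2-1: gacgcccccgggcccgctagggagcacagc
Lamp3: ttctgtggatctgctctgAAACtgagtcca
Of 32851 RefSeq starts, 50.8% held at least 1 of these cores in their first 50 bases. A match is a description of these letters and not a methylated site, and the rest of each peak was not searched.

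The gene ontology terms that come with the lists were read for the 8 members that have an assigned peak. The members were chosen for these roles, so the shares below describe the choice of genes and are not a result of the peaks. Surfactant homeostasis was given to 3 of them, Sftpd, Napsa and Lpcat1, and to 10 of 11211 genes in all. Lysosome was given to Sftpb, Lamp3 and Napsa and to 2.28% of all genes. Collagen trimer was given to both collectins and to 0.419% of all genes, and regulation of transcription by RNA polymerase II to Nkx2-1 and Etv5 and to 3.69%.

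Of a wider list of 40 other surfactant and type 2 cell genes, 32 had a peak with an FDR under 0.05 in OVA and 29 in PBS, and 29 in both. The members gave 9 of 10 in each list. Over all RefSeq protein-coding genes, 4.12% had such a peak in OVA alone and 2.71% in PBS alone. The 3 genes of the list with a peak in OVA alone were Csf2ra, a subunit of the receptor whose loss leads to surfactant accumulation, Ctsh, a lysosomal protease, and Pltp, a phospholipid transfer protein. Their highest fold enrichment was 3.73, 1.23 and 2.48, with a log10 p of -29.6, -7.96 and -3.88. The 3 highest genes of this list in OVA were transcription factor genes, with 43.6 for Gata6, 42 for Cebpa and 39.3 for Foxa1. The 3 highest in PBS were as well, with 36.8 for Cebpa, 30.3 for Foxa1 and 21.6 for Foxa2. The Gata6 value in OVA is that of an exon peak with a log10 p of -13.8, while its highest peak in PBS was another one, in the 3′ UTR, with 11. Nkx2-1 and Etv5, the highest of the members, had 9.18 and 8.65 in OVA and 11.4 and 8.15 in PBS. Over the 54 pairs of this list the median log2 ratio was 0.15, with 2 pairs at least 2-fold higher in OVA and 0 in PBS. Genes of the list without such a peak in either list were Cxcl15, Lyz1, Acly, Scd1, Srebf1, Fabp5, Tfcp2l1 and Stat3.

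Markers of other cells of the distal lung and airway were read in the same way. All 12 alveolar type 1 markers had a peak in both lists, with a median log2 ratio of 0.19 over 22 pairs, of which 2 were at least 2-fold higher in OVA and 0 in PBS. Their highest values in OVA were 17.7 for Akap5, 14.5 for Gprc5a and 13.2 for Vegfa, and in PBS 14 for Akap5, 11.8 for Gprc5a and 9.64 for Pdpn. Club and goblet cell markers gave 9 of 10 genes in OVA and 7 in PBS, with a median of 0.19 over 16 pairs, of which 2 were at least 2-fold higher in OVA and 1 in PBS. Scgb3a1 is counted in both lists through peaks called on its neighbour Flt4, and without it the counts are 8 and 6. Clca1, a goblet cell product, had a peak in OVA alone, with 3.55 and a log10 p of -999, as did Cyp2f2, a club cell cytochrome, with 1.93 and -26.5. The highest values of these markers in OVA were 23.1 for Aldh1a1, 22.5 for Spdef and 10 for Muc5ac, and in PBS 20.7 for Muc5ac, 10.9 for Muc5b and 8.55 for Spdef. Several of these peaks had weak evidence, with a log10 p of -7.24 for Aldh1a1 in OVA, and of -6.13 for Muc5ac and -6.02 for Spdef in PBS. Aldh1a1 had 5.89 in PBS, with a log10 p of -16.6, and the log10 p of the Muc5ac peak in OVA was -461. Scgb3a2 had no peak in either list.

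Alveolar macrophage markers gave 5 of 10 genes in OVA and 6 in PBS, with a median of 0.19 over 7 pairs, of which 1 was at least 2-fold higher in OVA and 0 in PBS. Chil3, a chitinase-like macrophage product, had a peak in PBS alone, with 1.75 and a log10 p of -4.51. The highest values were 7.38 for Plet1, 6.67 for Pparg and 4.86 for Atp6v0d2 in OVA, and 6.74 for Atp6v0d2, 6.45 for Plet1 and 3.87 for Pparg in PBS. The defining markers Marco, Siglecf and Fabp4, and Krt79, had no peak in either list. The part of cell composition in the values of the surfactant and type 2 genes was not tested, since the lists hold no transcript levels.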

How the data were processed

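Total lung RNA was depleted of ribosomal RNA, fragmented and made into 6 IP and 6 input libraries. Reads were aligned by the authors with HISAT2 to the Ensembl mouse genome, and exomePeak was used for peak calling and ChIPseeker for annotation. The deposited fold enrichment is the authors' ratio of IP over input, and each deposited score is a log10 of the p or FDR. Scores that the caller wrote as minus infinity are given no number. How replicates were combined, and the depth behind a peak, are not given in the sources used here. Ratios were not normalised between the lists.

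Peak starts in the lists count from 0 and are printed from 1, since 649 OVA peaks start 1 bp before and 20 at their transcript's annotated start. Of the OVA peaks called on RefSeq protein-coding genes, 97.7% overlap that gene on GRCm38. All 10 members matched an Ensembl identifier, and 7 of them a RefSeq start sequence by symbol. Peaks were compared by exonic blocks (at least 1 bp), with Python 3.11.15, and the code was checked on simulated peaks. Members and lists were chosen with earlier results of these data known. Genes named are all members, genes called at or assigned to a member peak, and genes nearest to Sftpc. Of each other list, they are those with a peak in 1 list alone and the 3 highest by fold enrichment in each list. Genes without a peak, Scgb3a1 and Flt4 were named after their values were seen.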

Additional observations from a re-analysis of the deposited data

How the results depend on the processing

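No paired analysis was possible because each list pools its 3 mice, and for the same reason no replicate could be left out. Of 55 alternative values, 51 stayed close to the reported one: counts within 1.5 times, 3′ UTR shares within their interval and log2 ratios within 1.5-fold. Part of this agreement was fixed in advance. One alternative took the strongest peak of a gene in each list. It could not differ for Sftpa1, Sftpb, Sftpd, Abca3, Napsa and Lpcat1, which have 1 peak in each list. The 3′ UTR shares had to stay only within wide intervals, 30.8% to 78.5% in OVA. With identical start and end required, 3 member peaks of the OVA list and 3 of the PBS list were shared. The count of member pairs past 2-fold was 1 after subtraction of the median over all pairs. It was 2 when each OVA peak took the PBS peak it overlapped most, through the short Nkx2-1 peaks, beside 14.4% of all such pairs. That pairing, the removal of peaks outside the RefSeq span, the joint counting of peaks under 1 peak of the other list and all alternatives to the count of pairs past 2-fold were chosen after seeing the data, while the 2-fold limit itself was not. The median log2 ratio of the members ranged from -0.2 to 0.02, and its sign is not fixed. Counts of member peaks ranged from 14 to 18 in OVA and from 10 to 14 in PBS, and member genes from 7 to 9 in both, with 7 at a fold enrichment of at least 2. A search for the m6A consensus in whole peaks was not run, since no genome was used here.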
